A study of Drosophila melanogaster with 36 samples.

Results

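Baseline transcript levels were compared between Mock RNAi cells and unmodified (WT) cells of the Drosophila melanogaster line S2R+, both without arsenite. The labels for cell line and source give S2R+, a derivative of S2, while the titles say S2. The members were chosen by their titles: the 3 Mock RNAi control libraries and the 3 WT control libraries of the 3 h experiment, 6 of the 36 libraries of the series. Both groups were poly(A) RNA of untreated cells grown under the same stated conditions, semi-adherent in Schneider's medium with serum. They differ in the label of their condition, WT or Mock RNAi, and the labels do not say which double-stranded RNA, if any, the Mock cells received. The series has 12 groups of 3 libraries. Besides these controls it holds WT and Mock cells given 0.5 mM sodium arsenite for 3 h or left to recover for a further 3 h. It also holds the same 3 treatments after RNAi directed at rin (rasputin), which encodes the G3BP homologue of the fly, and a bead-captured RNA set that was not used here. No label gives a batch or a date for the WT and RNAi sets, so the RNAi procedure, the batch of cells and the library set cannot be told apart in any value below.

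S2R+ cells descend from embryonic cells and carry features of hemocytes, the blood cells of the fly, which in the animal engulf microbes and secrete much of the basement membrane. RNA interference in fly cells is started by long double-stranded RNA added to the culture. Dicer-2 (Dcr-2) cuts it into short guides that are loaded into Argonaute 2 (AGO2), which then cleaves the matching transcript. A Mock treatment is the usual control for that procedure.

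The WT control libraries held 6121664 to 7436655 reads counted in genes, and the Mock control libraries 6897154 to 9669428. Mock control replicate 1 differed from replicates 2 and 3 with chi-square to degrees of freedom ratios of 10.7 and 8.86, against 1.58 between replicates 2 and 3 and 1.21 to 1.91 among the WT controls. Between the groups this ratio was 49.7 to 78.1. In Mock control replicate 3, 7.51% of reads aligned to several places, against 3.88% to 4.01% in WT control. The labels do not say whether replicates were separate cultures, so the p-values measure only the spread between these libraries. In bulk RNA, fewer cells of a type and less RNA per cell cannot be told apart.

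Of 17137 gene symbols, 7856 had enough counts to be tested with edgeR's quasi-likelihood test. Calls were made at an adjusted p (Benjamini-Hochberg) below 0.05. By that rule 59.5% of the genes tested differed, 2409 (30.7%) higher and 2269 (28.9%) lower in Mock cells. Levels are CPM, the counts of a gene scaled to a common library size, and changes are log2 fold changes of Mock over WT, relative to the typical gene, whose median change was 0.01. Replicates differed little, with a biological coefficient of variation of 5.40%, so small differences passed the test and most of them were small. Among the 6352 genes that averaged 10 CPM or more, the middle 50% of changes lay between -0.24 and 0.21. At least 2-fold differences were found for 12.2% of the genes tested, 735 (9.36%) higher and 223 (2.84%) lower in Mock cells.

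Rare genes can pass the filter on low counts through the group where they are high, and the Mock libraries were mostly deeper, so the shares of calls at low levels are a description only. Among genes with a mean under 3 CPM, 39.8% were called at least 2-fold higher and 9.45% at least 2-fold lower in Mock cells. Among genes at 100 CPM and over, which the filter does not touch, 1.94% were called higher and 2.77% lower by that size. With only genes of at least 10 CPM in a group tested, 342 genes were called at least 2-fold higher and 126 lower.

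**Figure D1:**
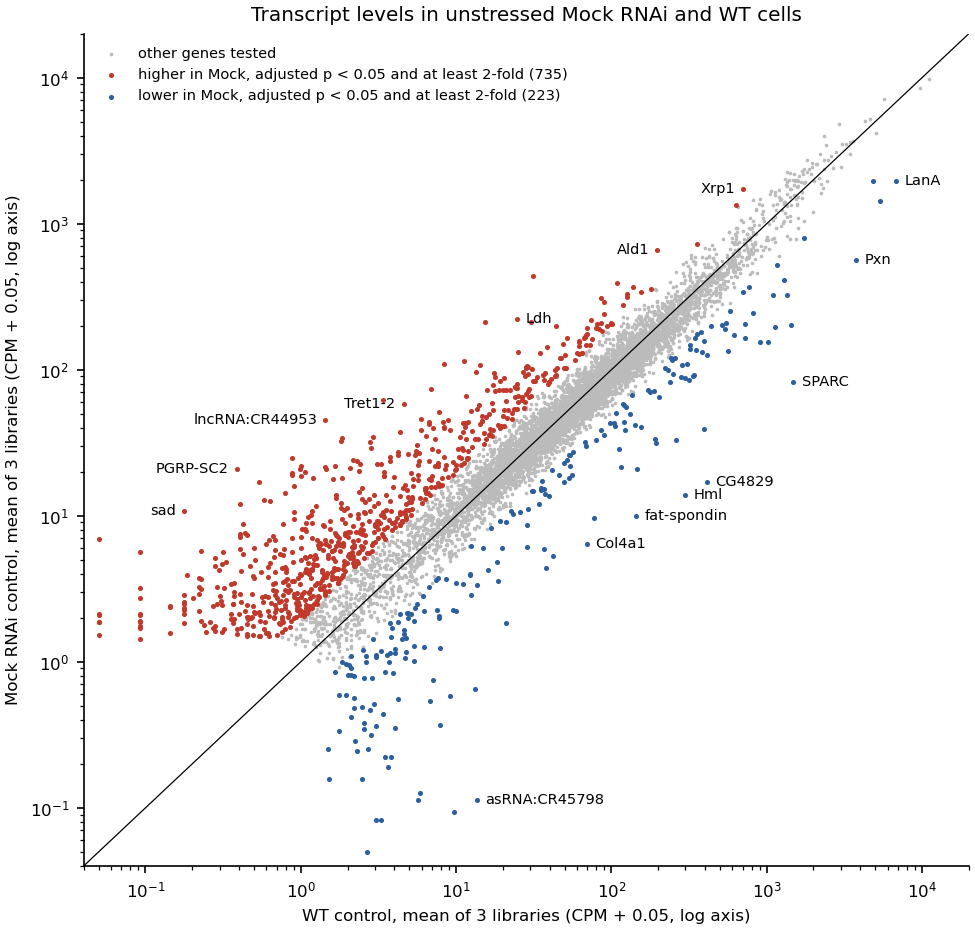
Mean transcript level of each of the 7856 genes tested, in CPM plus 0.05 on log axes, in WT control (x) and Mock RNAi control (y), 3 libraries each. Red points are the 735 genes called at least 2-fold higher in Mock cells and blue points the 223 called at least 2-fold lower; the blue points include the abundant LanA and Pxn.

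Transcripts that mark hemocytes were lower in Mock cells. Of 38 hemocyte markers 29 were tested, and 24 (82.8%) were lower and 1 (3.45%) higher, beside 28.9% and 30.7% over all genes. By at least 2-fold 14 (48.3%) were lower, beside 2.84% over all genes, and the median change was -0.89. The summed level of the markers was 20420 to 21870 CPM in the WT libraries and 5779 to 6866 CPM in the Mock libraries. Hemolectin (Hml), a clotting protein of plasmatocytes, stood at 272, 309 and 319 CPM in the WT libraries and at 11.2, 15.02 and 15.1 CPM in the Mock libraries. The groups were far apart, a change of -4.44 (SE 0.10, edgeR adjusted p = 2.95e-12). SPARC, which binds collagen IV and is needed for basement membranes, stood at 1539, 1460 and 1444 CPM in WT and at 87.9, 81.5 and 78.7 CPM in Mock libraries. All 3 Mock values lay far under the lowest WT value, a change of -4.15 (SE 0.06, edgeR adjusted p = 1.43e-13).

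The core chains of the basement membrane were lower in Mock cells. The collagen IV chain Col4a1 stood at 69.7, 66.1 and 72.0 CPM in WT and at 7.76, 6.28 and 5.002 CPM in Mock libraries, without overlap (change -3.41, SE 0.11). Its partner chain vkg changed by -2.64. The laminin beta chain LanB1 stood at 975, 1030 and 1060 CPM in WT and at 134, 166 and 167 CPM in Mock libraries, again without overlap (change -2.71, SE 0.08). The laminin gamma chain LanB2 changed by -2.55 and the laminin alpha chain LanA by -1.80, the latter from 6841 ± 487 to 1954 ± 349 CPM (SD, n = 3). Peroxidasin (Pxn), the enzyme that crosslinks collagen IV, changed from 3767 ± 67.9 to 563 ± 11.6 CPM (SD, n = 3), a change of -2.73 (SE 0.05). Glutactin (Glt), a glycoprotein of basement membranes, changed by -2.82, papilin (Ppn) by -1.54 and perlecan (trol) by -1.36.

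The receptors and regulators of hemocytes named here ranged from lower in Mock cells to not past the test. A wider list of receptors held more higher members than lower. Pvr, the receptor for PDGF- and VEGF-like factors, changed from 1098 ± 41.1 to 326.5 ± 16.2 CPM (SD, n = 3), by -1.74. The phagocytic receptor eater stood at 23.7, 23.3 and 19.8 CPM in WT and at 10.4, 10.7 and 15.3 CPM in Mock libraries, a change of -0.89 (SE 0.14). The Mock replicate with the highest value still lay below the lowest WT value. NimC4, a receptor for the uptake of dying cells, changed by -1.50 and the scavenger receptor Sr-CI by -0.53. These 3 belong to a list of receptors for phagocytosis and the uptake of double-stranded RNA. Of its 12 genes tested 6 (50%) were higher and 3 (25%) lower, beside 30.7% and 28.9% over all genes. In that list 2 were at least 2-fold higher and 1 at least 2-fold lower, with a median change of 0.16. The GATA factor srp, which specifies blood cells, changed by -0.41, while its cofactor ush and the CD36-like receptor crq did not pass the test, with changes of 0.11 and 0.03. Idgf4, a chitinase-like growth factor, was the 1 marker that was higher, at 2.08, whereas its relative Idgf6 changed by -1.88. Unlike Idgf6, Idgf4 was not among the genes at 10 CPM or more in a group without overlap.

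Both groups lacked some defining hemocyte genes. The lamellocyte marker atilla had no count in any of the 6 libraries, and NimC1, lz, PPO1, gcm and gcm2 stayed under 1 CPM in all of them. The hemocyte markers srp, Pxn, Hml and crq were all present, so the labelled line carried part of the hemocyte programme in both groups. Without Mock control replicate 1, 25 markers were lower and 2 higher, and without replicate 3, 24 were lower and 1 higher.

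Adhesion genes did not follow the matrix in 1 direction. Of 42 adhesion and matrix genes tested, 15 (35.7%) were higher and 17 (40.5%) lower, beside 30.7% and 28.9% over all genes. The median change was 0.03. By at least 2-fold 8 (19.05%) were higher and 9 (21.4%) lower, beside 9.36% and 2.84% over all genes. The integrin chains split. The alpha chain if changed by -1.54 and the common beta chain mys by -0.89. The alpha chain scb changed by 0.93 and the beta chain Itgbn by 1.38. The matrix metalloproteases also split, Mmp2 by -1.90 and Mmp1 by 1.34. Nidogen (Ndg), which links laminin and collagen IV, was higher in Mock cells at 164 ± 8.89 against 67.05 ± 4.996 CPM (SD, n = 3), a change of 1.30. The cell adhesion molecule Fas2 stood at 2.60, 2.30 and 2.41 CPM in WT and at 14.3, 15.5 and 16.6 CPM in Mock libraries, well apart (change 2.67, SE 0.15). Its relatives in junctions and axons, Fas3 and neuroglian (Nrg), changed by 3.41 and 1.86. Unlike Nrg, Fas3 was not among the genes at 10 CPM or more in a group without overlap.

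Most of the listed genes for detoxification enzymes were higher in Mock cells. Of 47 glutathione transferases and cytochromes P450, 33 were tested. Of those tested, 27 (81.8%) were higher and 3 (9.09%) lower, beside 30.7% and 28.9% over all genes. At least 2-fold higher were 21 (63.6%), beside 9.36% over all genes, with a median change of 1.37. Their summed level was 1159 to 1190 CPM in WT and 2320 to 2525 CPM in Mock libraries. The P450 gene Cyp6a23 stood at 6.87, 6.76 and 6.35 CPM in WT and at 44.2, 43.9 and 38.7 CPM in Mock libraries, with no overlap (change 2.68, SE 0.10, edgeR adjusted p = 3.69e-10). Cyp6a8 changed by 2.91 and Cyp4p1 by 3.14, both from a few CPM or less in WT cells. Among the glutathione transferases, which attach glutathione to reactive compounds, GstE3 changed from 109 ± 3.60 to 395 ± 20.2 CPM (SD, n = 3), by 1.86, and GstD1 by 1.08. Without WT control replicate 2 or Mock control replicate 3, the lower count was 1. The omega-class member GstO3 was lower, at -0.20, and GstO1 did not pass the test, at -0.12. The list does not hold every member of these families, and members outside it went both ways. GstE10 and the P450 gene Cyp4d20 changed by -1.19 and -1.39, and Cyp4aa1 and GstT4 by 4.22 and 1.01. Several of these genes lie in clusters of similar copies, and reads that aligned to several places were left out of the counts, so shares between close copies are uncertain.

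Other defences against oxidants and metals changed less evenly. Of 20 genes tested in the metal and oxidant list, 10 (50%) were higher and 6 (30%) lower, with a median change of 0.17. The shares over all genes were 30.7% and 28.9%. The metal-binding protein MtnA stood at 24.7, 25 and 22.0 CPM in WT and at 79.9, 77.6 and 69.4 CPM in Mock libraries, and was the 1 member called at least 2-fold higher (change 1.68, SE 0.08). Gclc, which makes the first step of glutathione synthesis, changed by just under 1.00, while its partner Gclm did not pass the test, at 0.03. Keap1, the repressor of the antioxidant factor cnc, changed by 0.68 and cnc itself by 0.31. Catalase (Cat) was lower at -0.50.

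Transcripts of most genes listed for glycolysis and sugar uptake were higher in Mock cells. Of 29 genes tested in the glycolysis and hypoxia list, 21 (72.4%) were higher and 4 (13.8%) lower, beside 30.7% and 28.9% over all genes. At least 2-fold higher were 10 (34.5%), beside 9.36% over all genes, with a median change of 0.70. The trehalose transporter Tret1-2 stood at 3.97, 4.34 and 5.33 CPM in WT and at 55.9, 62.3 and 55.9 CPM in Mock libraries. The lowest Mock value was far above the highest WT value, a change of 3.67 (SE 0.11, edgeR adjusted p = 2.97e-11). Lactate dehydrogenase (Ldh) stood at 26.1, 23.3 and 24.4 CPM in WT and at 235, 233 and 204 CPM in Mock libraries (change 3.20, SE 0.08). Again the groups were far apart, with Mock control replicate 3 the lowest of its group. Aldolase (Ald1) stood at 197, 193 and 203 CPM in WT and at 653, 680.5 and 647 CPM in Mock libraries, without overlap (change 1.75, SE 0.05). Hexokinase (Hex-A) changed by 1.43, triose phosphate isomerase (Tpi) by 1.44, phosphofructokinase (Pfk) by 1.11 and Gapdh1 by 1.03. Pyruvate kinase (PyK), the last step, was lower at -0.25. The hypoxia factor sima changed by 0.27 and Vhl, which marks it for degradation, by -0.76.

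**Figure D2:**
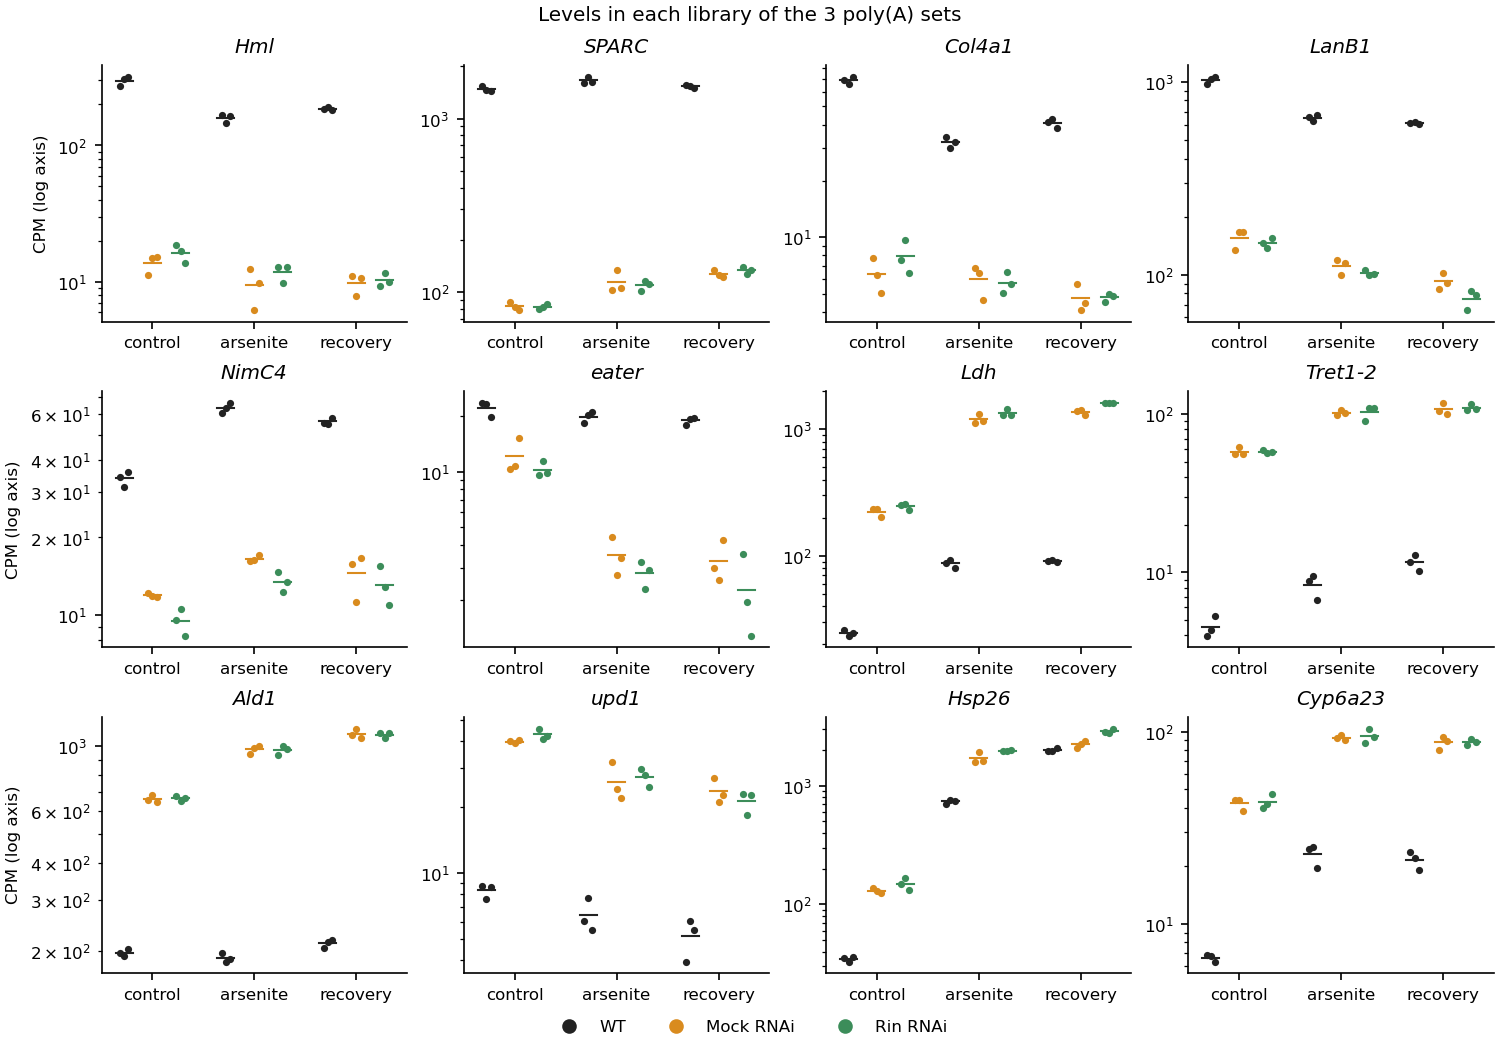
Level of 12 genes in CPM (log axes) in each of the 27 poly(A) libraries, grouped by treatment on the x axis: control, arsenite and recovery in WT (black), Mock RNAi (orange) and Rin RNAi (green). Points are single libraries and lines are means of 3; in control cells every Mock value of Hml, SPARC, Col4a1, LanB1, NimC4 and eater lies below the WT values and every Mock value of Ldh, Tret1-2, Ald1, upd1, Hsp26 and Cyp6a23 above them.

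Several small heat-shock genes were higher in Mock cells at rest. Of 18 heat-shock and chaperone genes tested, 12 (66.7%) were higher and 1 (5.56%) lower, beside 30.7% and 28.9% over all genes. At least 2-fold higher were 7 (38.9%), beside 9.36% over all genes, with a median change of 0.58. Without Mock control replicate 1 the lower count was 2. Hsp26 stood at 35.1, 32.9 and 36.0 CPM in WT and at 138, 129 and 124.5 CPM in Mock libraries. The groups did not overlap (change 1.92, SE 0.07, edgeR adjusted p = 1.33e-10). Hsp27 changed by 1.68, Hsp23 by 1.34 and Hsp68 by 1.26. The co-chaperone starvin (stv) changed by 2.82, from 3.97, 1.91 and 3.81 CPM in WT to 21.2, 24.7 and 21.3 CPM in Mock libraries. The constitutive chaperones moved little: Hsp83 was lower at -0.27, and Hsc70-4 did not pass the test, at 0.08. The Hsp70 copies are nearly identical and their separate values are uncertain. After arsenite the WT cells reached 735 CPM of Hsp26 on average, against 34.7 CPM in resting WT and 130.5 CPM in resting Mock cells.

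Of 21 genes tested in the integrated stress and unfolded protein lists, 12 (57.1%) were higher and 5 (23.8%) lower. The shares over all genes were 30.7% and 28.9%, and the median change of the lists was 0.30. Thor, the translation inhibitor 4E-BP, stood at 2.14, 2.93 and 1.78 CPM in WT and at 10.2, 11.7 and 8.69 CPM in Mock libraries and was the 1 member at least 2-fold higher (change 2.17, SE 0.21). Its activator crc, the fly ATF4, changed by 0.87, and the endoplasmic reticulum chaperone Hsc70-3 by 0.60. The disulfide isomerase Pdi was lower at -0.21.

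Ligands of the JAK-STAT pathway were higher in Mock cells. This pathway carries cytokine-like signals through the receptor dome, the kinase hop and the transcription factor Stat92E. Of 16 genes tested in its list, 8 (50%) were higher and 4 (25%) lower, beside 30.7% and 28.9% over all genes. By at least 2-fold 5 (31.25%) were higher and 1 (6.25%) lower, beside 9.36% and 2.84%, with a median change of 0.06. The ligand upd1 stood at 8.71, 7.65 and 8.63 CPM in WT and at 39.9, 39.0 and 40.3 CPM in Mock libraries. The Mock values lay close together and far above WT, a change of 2.26 (SE 0.09, edgeR adjusted p = 5.09e-10). The other ligands upd2 and upd3 changed by 1.78 and 1.28, and the feedback inhibitor Socs36E, a target gene, by 1.32. The receptor dome changed by 0.33 and hop by -0.28. Stat92E did not pass the test, at -0.16. Eye transformer (et), which antagonises the receptor, was lower at -1.73, and Sting, a sensor of antiviral defence, at -0.81. The gene et was not among those at 10 CPM or more in a group without overlap.

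In receptor tyrosine kinase signalling the ligands Pvf2 and Pvf3 were higher, and the receptor Pvr and the inhibitors sty and Mkp3 were lower. Other ligands, receptors and inhibitors of the list are not given here. Of 30 genes tested in the JNK, AP-1 and EGF/PDGF list, 13 (43.3%) were higher and 10 (33.3%) lower, beside 30.7% and 28.9% over all genes. By at least 2-fold 6 (20%) were higher and 4 (13.3%) lower, beside 9.36% and 2.84%, with a median change of 0.06. Pvf2, a ligand of Pvr, stood at 22.8, 17.6 and 20.2 CPM in WT and at 81.7, 89.6 and 93.9 CPM in Mock libraries, with no overlap (change 2.14, SE 0.09). The ligand Pvf3 changed by 2.46. Sprouty (sty), a feedback inhibitor of Ras signalling, stood at 1350, 1378 and 1338 CPM in WT and at 314, 335 and 332 CPM in Mock libraries. All Mock values were far lower, a change of -2.04 (SE 0.05, edgeR adjusted p = 5.98e-12). The MAP kinase phosphatase Mkp3 changed by -1.39 and the Ets factor pnt by -0.76. The steps between receptor and nucleus did not pass the test, with Ras85D at 0.02, Raf at 0.08 and rl at 0.03. The JNK phosphatase puc, a target of that kinase, changed by 0.48.

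The Imd and Toll pathways of immune defence moved in both directions. Of 23 genes tested 9 (39.1%) were higher and 8 (34.8%) lower, beside 30.7% and 28.9% over all genes. The median change was -0.02, and 3 (13.0%) were higher by at least 2-fold, beside 9.36% over all genes. Without WT control replicate 3 the higher count was 5. Pirk, an inhibitor of Imd signalling, stood at 15.7, 18.1 and 14.97 CPM in WT and at 51.5, 51.7 and 47.1 CPM in Mock libraries (change 1.63, SE 0.09). PGRP-LB, an amidase that degrades the bacterial inducer, changed by 4.15 from 0.399 to 7.30 CPM, and the Toll factor dl by 1.00. The Imd caspase Dredd and the Imd factor Rel were lower, at -0.71 and -0.59. None of the 24 antimicrobial peptide genes had enough counts to be tested, and their summed level was 1.83 to 2.28 CPM in WT and 2.11 to 2.68 CPM in Mock libraries. No such gene exceeded 0.761 CPM in any of the 6 libraries.

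Of 17 genes of the RNA interference and microRNA machinery tested 3 (17.6%) were higher and 6 (35.3%) lower, beside 30.7% and 28.9% over all genes. The median change was 0.01 and none was called at 2-fold. AGO2 stood at 491.5, 508 and 520 CPM in WT and at 435, 478 and 455 CPM in Mock libraries. Its groups did not overlap, but the change was only -0.14 (SE 0.05, edgeR adjusted p = 0.0283), and the call was lost with total library size as the scaling, with the 10 CPM filter, and without WT control replicate 2, WT control replicate 3 or Mock control replicate 3. Dcr-2 stood at 172, 181 and 181 CPM in WT and at 174, 205 and 196 CPM in Mock libraries. These groups overlapped and the gene did not pass the test (change 0.11, SE 0.06, edgeR adjusted p = 0.127), although it did with total library size and without Mock control replicate 1. Over all alternatives its edgeR or DESeq2 adjusted p ran from 0.000701 to 0.426. The microRNA enzyme Dcr-1 was lower at -0.44, and the piRNA factor AGO3 and the small-RNA methylase Hen1 were higher at 0.74 and 0.42. Without Mock control replicate 1, 5 members were higher and 6 lower.

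The gene rin, the named target of the Rin RNAi cells, stood at 684, 715 and 712 CPM in WT and at 895, 910.2 and 891 CPM in Mock libraries. Every Mock value was above every WT value, a change of 0.36 (SE 0.05, edgeR adjusted p = 2.39e-05). With all 27 poly(A) libraries in the fit the change was 0.35 and the call was lost (edgeR adjusted p = 0.0803, the highest of a range over alternatives from 1.05e-12). In Rin RNAi control cells the mean was 291 CPM, a change of -1.28 from WT. Those cells share the WT controls with this comparison.

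Hormone and growth genes gave scattered differences. Of 21 ecdysone genes tested 10 (47.6%) were higher and 3 (14.3%) lower, beside 30.7% and 28.9% over all genes, with a median change of 0.23. The death gene reaper (rpr) stood at 4.89, 5.87 and 5.58 CPM in WT and at 24.9, 28.1 and 30.1 CPM in Mock libraries (change 2.34, SE 0.12), and the hormone receptor Hr4 changed by 1.96. The receptor EcR did not pass the test, at 0.10. Of 28 insulin, TOR and FOXO genes tested 9 (32.1%) were higher and 9 (32.1%) lower, close to the shares over all genes. Their median was -0.03, and without WT control replicate 3 the lower count was 5. CG6770 changed by 1.72 and the amino acid transporter path by 1.16, while InR, Akt1 and foxo did not pass the test. Of 30 genes of fatty acid and sterol metabolism 8 (26.7%) were higher and 6 (20%) lower, both under the shares over all genes, with a median of 0.07. Fatty acid synthase FASN1 stood at 1156, 1195 and 1240 CPM in WT and at 448, 677 and 675 CPM in Mock libraries, where replicate 1 was the lowest (change -0.99, SE 0.12). The lipoprotein receptor LpR2 changed by 2.21.

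Of 41 cyclin and mitosis genes tested 10 (24.4%) were higher and 12 (29.3%) lower, close to the shares over all genes, with a median of -0.05 and 1 at 2-fold. Of 40 DNA replication genes 12 (30%) were higher and 8 (20%) lower, beside 30.7% and 28.9% over all genes. None was at 2-fold, the median was 0.05, and without Mock control replicate 1 the lower count was 13. DNA ligase 1 (DNAlig1) had a change of -0.52, and the meiotic phosphatase twe one of 0.77. Of 31 proteasome genes tested 1 (3.23%) was higher and 14 (45.2%) lower, beside 30.7% and 28.9% over all genes. Their median was -0.13, and without Mock control replicate 1 the lower count was 23. The 1 higher member was lost without WT control replicate 2 or 3. The lid subunits Rpn7 and Rpn6 changed by -0.45 and -0.42.

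**Figure D3:**
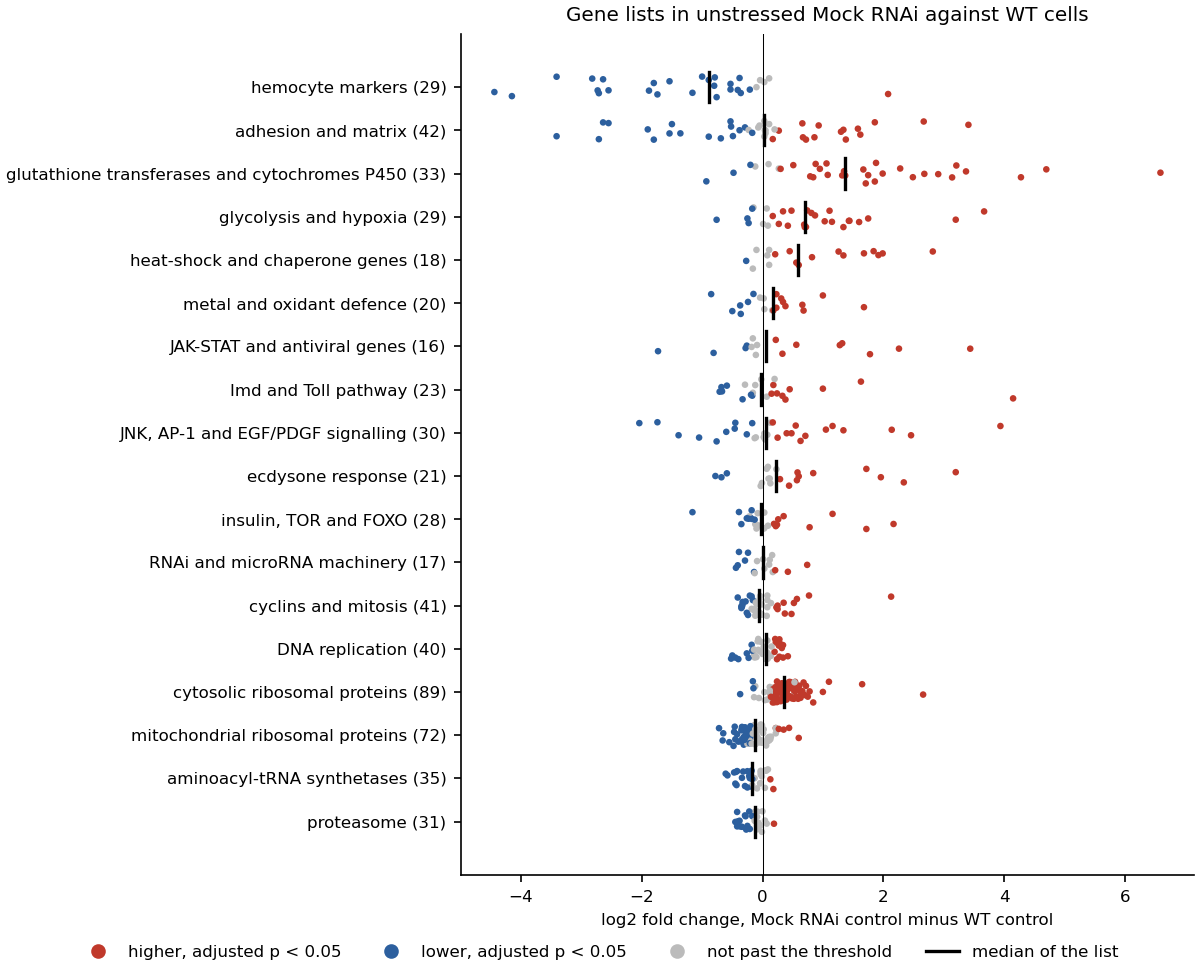
Change of each member of 18 gene lists, as the log2 fold change of Mock RNAi control minus WT control on the x axis, with the number of members tested in brackets. Points are genes, red where called higher, blue where called lower and grey where not called, and black bars are list medians, which run from -0.89 for the hemocyte markers to 1.37 for the glutathione transferases and cytochromes P450; the median of all genes tested was 0.01.

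Messages for the cytosolic ribosome were slightly and almost uniformly higher in Mock cells. Of 89 ribosomal protein genes tested 73 (82.0%) were higher and 3 (3.37%) lower, beside 30.7% and 28.9% over all genes. The median change was 0.36, and 3 (3.37%) were higher by at least 2-fold, beside 9.36% over all genes. Their summed level was 134400, 132500 and 130200 CPM in the WT libraries. In the Mock libraries it was 180800, 161900 and 159500 CPM, with Mock control replicate 1 the highest. RpL38 stood at 643, 681 and 648 CPM in WT and at 1413, 1254 and 1250 CPM in Mock libraries, without overlap (change 1.00, SE 0.06). RpL29 changed by 1.10. RpS19b, a copy of RpS19 with germline expression, changed by 1.65. Without Mock control replicate 1 the median of the 85 genes with a known length and at least 10 CPM was 0.29, and 73 members were higher and 5 lower. The lower count was 1 without WT control replicate 2 or Mock control replicate 2.

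The change of these genes went with their exonic length, the summed width of all annotated exons of a gene with overlaps merged. It can exceed the length of the transcript that the cells expressed. Across the 85 genes, the log2 fold change and the log2 exonic length had a Pearson r of -0.46 and a Spearman rho of -0.54, as a description across genes of the same libraries. The 9 genes under 600 bases had a median change of 0.56 and the 76 longer ones of 0.33. Over all protein-coding genes at 10 CPM or more and outside this family, the median change was 0.09 for the 96 genes under 600 bases and lay between -0.07 and 0.00 in the longer classes. The lengths of the expressed transcripts were not measured, and what part length has in the ribosomal result was not tested. Without Mock control replicate 1 the Spearman rho was -0.52.

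**Figure D4:**
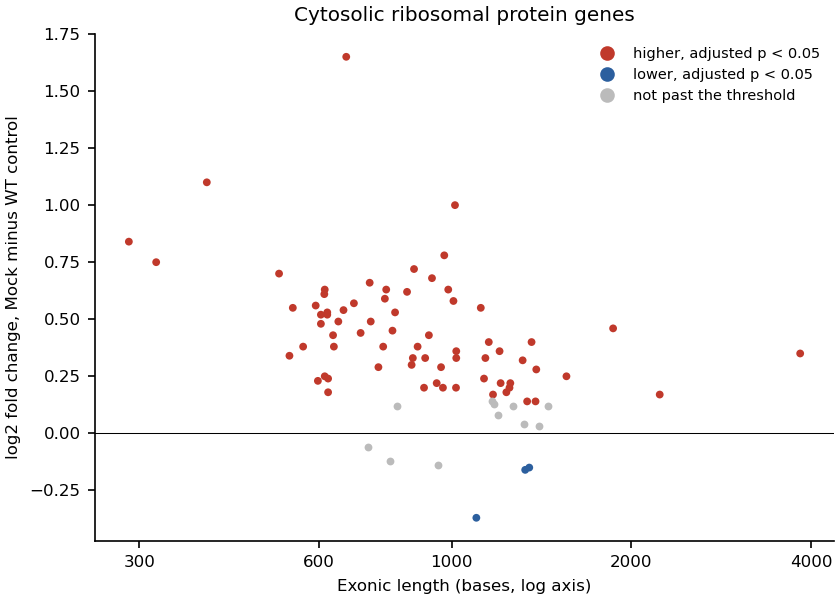
Change of 85 cytosolic ribosomal protein genes (y, log2 fold change of Mock over WT control) against exonic length in bases (x, log axis). Red points were called higher, blue points lower and grey points not called; the 9 genes under 600 bases have a median of 0.56 and the 76 longer genes of 0.33.

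Other parts of the translation and energy machinery did not share that direction. Of 72 mitochondrial ribosomal protein genes tested 5 (6.94%) were higher and 31 (43.1%) lower, beside 30.7% and 28.9% over all genes. Their median was -0.13 and none was at 2-fold. Without WT control replicate 2 or 3 the higher count was 3. The subunits mRpL20 and mRpS10 changed by -0.72 and -0.66. Of 35 aminoacyl-tRNA synthetase genes 2 (5.71%) were higher and 19 (54.3%) lower, with a median of -0.18, among them beta-PheRS at -0.58. The higher count was 0 without WT control replicate 2 or Mock control replicate 3, and 1 without WT control replicate 1 or 3 or Mock control replicate 2. Of 60 nuclear genes of oxidative phosphorylation 15 (25%) were higher and 7 (11.7%) lower, both under the shares over all genes, with a median of 0.07. Without WT control replicate 3 the higher count was 6, and without Mock control replicate 1 the lower count was 19, so neither count was stable to the choice of libraries. COX8, a small subunit of cytochrome oxidase, changed by 0.63, and ND-49 of complex I by -0.58.

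Long noncoding RNAs were more often higher in Mock cells than lower, and so were rare genes in general. Of 150 tested 82 (54.7%) were higher and 12 (8%) lower, beside 30.7% and 28.9% over all genes, with a median of 0.63. By at least 2-fold 55 (36.7%) were higher and 5 (3.33%) lower, beside 9.36% and 2.84% over all genes. Among all genes with a mean under 3 CPM these shares were 39.8% and 9.45%. Long noncoding RNAs are mostly rare transcripts, and with only genes of at least 10 CPM in a group their 2-fold counts were 15 and 1. The transcript lncRNA:CR44953 stood at 2.14, 0.638 and 1.40 CPM in WT and at 40.8, 46.4 and 48.0 CPM in Mock libraries, with a wide gap (change 5.05, SE 0.19). On chromosome arm 3R of dm6 it spans 29755190 to 29759040 on the minus strand and overlaps no annotated gene. The nuclear RNA lncRNA:noe stood at 1.38, 1.28 and 1.52 CPM in WT and at 20.1, 21.3 and 23.3 CPM in Mock libraries (change 3.94, SE 0.16).

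Antisense transcripts went both ways. Of 129 tested 35 (27.1%) were higher and 46 (35.7%) lower, beside 30.7% and 28.9% over all genes. By at least 2-fold 21 (16.3%) were higher and 39 (30.2%) lower, beside 9.36% and 2.84%, with a median of -0.05. The 2-fold lower count was 4 with only genes of at least 10 CPM in a group, 112 with no filter, 81 with DESeq2 and 67 with all 27 libraries in the fit. The library kit does not mark strand, so reads of an antisense gene and its partner cannot be told apart where they overlap. The transcript asRNA:CR45798, on 3R from 21266255 to 21267794 and opposite the vesicle transport gene Rab1, had 303 reads in the 3 WT libraries and 2 in the 3 Mock libraries. The ratio per unit of depth was 194, with an exact 95% interval of 53.3 to 1611 that covers counting error only. Rab1 itself was at 469 ± 7.72 CPM in WT and 480.0 ± 26.6 CPM in Mock libraries (SD, n = 3). The transcript asRNA:CR45926, opposite the histone chaperone gene Nap1, stood at 14.5, 12.5 and 12.6 CPM in WT and at 0.767, 0.380 and 0.658 CPM in Mock libraries (change -4.42, SE 0.23). Nap1 changed by -0.46.

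Small nuclear and nucleolar RNAs, most of which lack a poly(A) tail, were counted at low levels. Of 20 tested 9 (45%) were higher and 1 (5%) lower, beside 30.7% and 28.9% over all genes, with a median of 0.15. Neither count was stable to the processing. Under the other settings run the higher count went from 1 to 21 and the lower count from 0 to 5. Without WT control replicate 3, Mock control replicate 1 or Mock control replicate 3 the lower count was 2. The spliceosomal RNA gene snRNA:U5:63BC had no read in WT control and 194 in the 3 Mock control libraries, which with a floor of 3 counts set over the WT group is at least 50.4-fold higher. Every Mock library had reads of it. It is 1 of several near-identical U5 genes, and what carried its reads was not tested. Of 5 histone genes tested 1 was higher, the variant His2Av at 0.22, and 2 were lower, the variants His3.3B at -0.28 and His3.3A at -0.24.

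Among genes called at 2-fold, without overlap and at 10 CPM or more in a group, the 12 with the largest positive changes had varied roles. Shadow (sad), a P450 of ecdysone synthesis on 3R from 11877235 to 11879754, had 3 reads in WT and 311 in Mock control, a ratio per unit of depth of 80.9 with an exact 95% interval of 27.4 to 394. PGRP-SC2, an amidase that degrades peptidoglycan, stood at 0, 0.638 and 0.381 CPM in WT and at 23.4, 21.8 and 17.1 CPM in Mock libraries (change 5.82, SE 0.32). The calcium-binding protein gene CBP changed by 5.08, rdo by 5.02, CG12826 by 4.93, CG31808 by 4.54 and CG15544 by 4.53. The zinc-finger factor klumpfuss (klu) changed by 4.53, the septin Sep4 by 4.51 and lncRNA:CR44138 by 4.41. The myosin light chain Mlc2 stood at 0.916, 1.02 and 0.888 CPM in WT and at 23, 20.6 and 19.1 CPM in Mock libraries (change 4.47, SE 0.19). All 12 stood under 3 CPM in every WT library.

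By the same rule, the 12 largest negative changes included abundant transcripts. CG4829, on the X chromosome from 16811699 to 16826494, stood at 400.2, 409 and 420.4 CPM in WT and at 16.0, 17.6 and 17.5 CPM in Mock libraries. The Mock values were close together and far below WT, a change of -4.58 (SE 0.06, edgeR adjusted p = 6.95e-14). The secreted protein fat-spondin stood at 150, 146 and 139 CPM in WT and at 8.63, 10.7 and 10.5 CPM in Mock libraries (change -3.86, SE 0.08). Its opposite-strand neighbour tef, which overlaps it, did not pass the test, at 0.14. The lipid transfer particle gene Apoltp stood at 369, 401 and 418 CPM in WT and at 32.3, 45.0 and 40.3 CPM in Mock libraries, without overlap (change -3.33, SE 0.09). CG33307 changed by -3.51, CG42324 by -3.13, the galactosidase gene Gal by -2.98 and the serine protease gene teq by -2.96. CG33307 lies opposite CenG1A, which changed by -0.43.

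Some markers of other cell types were present in both groups, while several defining ones were near 0. The counts of markers called stand beside 30.7% higher and 28.9% lower over all genes. Of 16 neuron markers 8 were tested, 6 were higher and 0 lower (1 lower without Mock control replicate 1), and their summed level was 236 to 251 CPM in WT and 258 to 273.5 CPM in Mock libraries, most of it from Syx1A. The neuronal RNA-binding protein elav changed by 0.85 and futsch by 0.91. Of 8 glia markers 5 were tested, 3 higher and 2 lower, with 1044 to 1059 CPM in WT and 888 to 921 CPM in Mock libraries, and the glial factor repo stayed under 1 CPM. Of 18 muscle markers 8 were tested, 5 higher (3 without WT control replicate 1 or 3) and 3 lower, with 1206 to 1300 CPM in WT and 1344 to 1748 CPM in Mock libraries. The giant protein gene sls stood at 102, 120.5 and 132 CPM in WT and at 186.5, 331 and 312 CPM in Mock libraries (change 1.23, SE 0.17), while the muscle myosin Mhc stayed under 1 CPM. Of 14 fat body markers 4 were tested, 0 higher and 2 lower, and the storage protein gene Lsp1alpha had no count. Their sum was 1534 to 1669 CPM in WT and 492 to 735.5 CPM in Mock libraries, almost all from FASN1 and Apoltp. Of 19 germline and follicle markers 15 were tested, 5 higher (3 without WT control replicate 3) and 3 lower, with 530.0 to 550 CPM in WT and 468.5 to 511 CPM in Mock libraries, and Vm32E had no count. Of 20 epithelium and gut markers 5 were tested and 5 were higher (3 without any 1 of WT control replicates 1, 2 and 3 or Mock control replicates 2 and 3), with 149.8 to 163 CPM in WT and 216 to 273.5 CPM in Mock libraries. The polarity gene crb changed by 1.20 and sdt by 0.76, while the gut enzymes Amy-d, betaTry, lambdaTry and Jon65Aiii had no count.

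The same genes were read in libraries that the comparison did not use. Among the 735 genes at least 2-fold higher in Mock control, 701 were tested between Mock and WT cells under arsenite, and 632 were called higher and 6 lower there. There 56.5% of all 8105 genes tested were called, 28.8% as higher, and 10.3% were at least 2-fold higher and 3.49% at least 2-fold lower. In recovery 713 were tested, with 598 called higher and 40 lower, beside 37.5% of all genes higher, 9.22% at least 2-fold higher and 6.77% at least 2-fold lower. Among the 223 genes at least 2-fold lower, 209 were tested under arsenite with 190 called lower and 0 higher, where 27.7% of all genes were lower. In recovery 211 were tested with 199 called lower and 0 higher, where 35.7% of all genes were lower. In all 3 treatments 410 genes were at least 2-fold higher and 133 at least 2-fold lower, of 7739 tested in each.

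**Figure D5:**
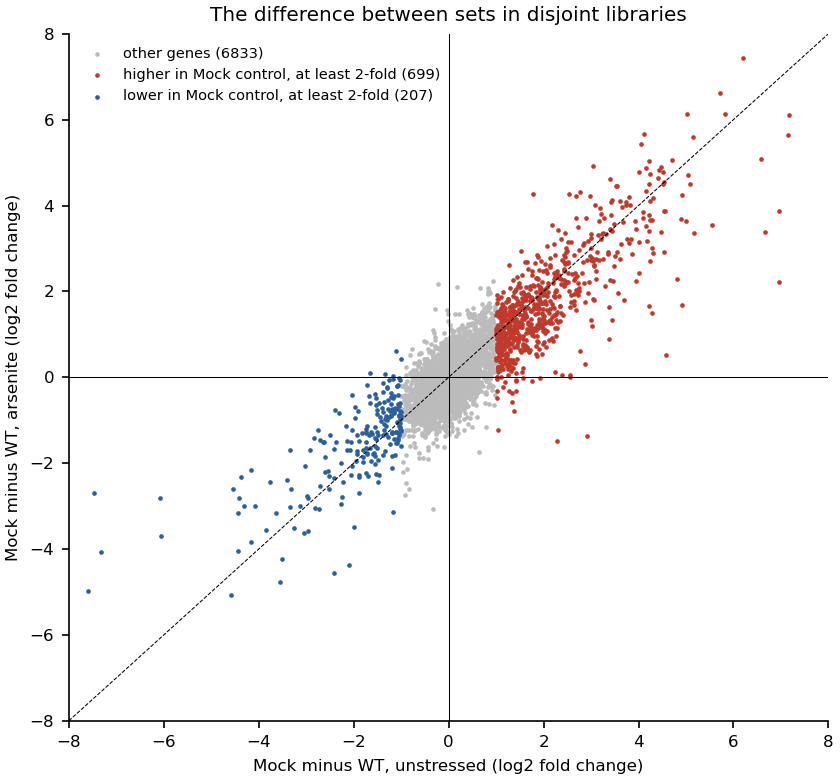
Log2 fold change of Mock over WT in unstressed cells (x) and under arsenite (y) for the 7739 genes tested in all 3 treatments; the axes share no library. Red points were at least 2-fold higher and blue points at least 2-fold lower in the unstressed comparison, and most of both keep their side of 0 on the y axis.

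The lists were counted in the same way between Mock and WT cells after treatment. Over all genes tested 28.8% were higher and 27.7% lower under arsenite, and 37.5% higher and 35.7% lower in recovery. Under arsenite 26 of 29 hemocyte markers were lower and 1 higher, with a median of -0.82, and in recovery 28 were lower and 1 higher, with a median of -1.34. Hml changed by -4.04 under arsenite and by -4.21 in recovery. Of 29 glycolysis and hypoxia genes 22 were higher and 3 lower under arsenite and 19 higher and 6 lower in recovery, and Ldh changed by 3.81 and 3.94. The heat-shock list had 15 of 18 genes higher under arsenite, with a median of 0.48, but 7 higher and 7 lower in recovery, with a median of -0.02. The detoxification list had 24 higher and 7 lower of 36 tested under arsenite, and 20 higher and 14 lower of 40 in recovery. Cyp6a8 was lower in Mock than in WT cells after arsenite, at -1.36, and in recovery, at -0.89, against 2.91 at rest. Over all 8716 genes tested for a difference between treatments in the Mock against WT change, 26.5% were called for arsenite against rest and 42.6% for recovery against rest.

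Rin RNAi control cells stood close to the Mock cells. Both are compared here with the same 3 WT libraries, so their values are given side by side. Against WT, 12.6% of 7950 genes tested differed at least 2-fold in Rin RNAi cells, 765 (9.62%) higher and 233 (2.93%) lower. At any size 33.7% were higher and 33% lower. Hml changed by -4.20 there, SPARC by -4.18, Col4a1 by -3.13, Ldh by 3.32, Tret1-2 by 3.65, upd1 by 2.36 and Hsp26 by 2.10, each beside the Mock values given above. Among the 27 poly(A) libraries the leading component held 55.5% of the variance in log expression. On it the WT controls lay at -56.9 to -56.5, the Mock controls at -13.0 to -10.9 and the Rin controls at -13.8 to -11.4. It also followed treatment, with WT arsenite libraries at -30.05 to -27.2 and WT recovery libraries at -15.5 to -15.1, near the Mock controls. The next component held 27% of the variance. On it the Mock controls lay at -32.3 to -30.9, the WT controls at -4.65 to -4.05 and WT recovery at 39.55 to 40.3.

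The differences were spread over the genome. On arms 2L, 2R, 3L, 3R and X, the running median of the change along the arm stayed between -0.14 and 0.11. The share of tested genes with a 2-fold difference ran from 11.3% on 2L to 14.5% on 3L, and was 6.67% of 75 genes on chromosome 4.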

How the data were processed

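Per the labels, poly(A) RNA was made into libraries with a TruSeq kit that does not mark strand and read single-end. The deposited files hold raw counts of reads per gene symbol, with 5 summary lines left out here. The submitters' processing notes name STAR 2.5.3, HTSeq, DESeq2 and the build dm6; their settings are not given in the sources used here. The authors' deposited comparison tables do not compare Mock with WT cells and were not used.

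Groups came from titles and condition labels. R 4.3.3 with edgeR 4.0.16 was used: filterByExpr, TMM scaling (factors 0.986 to 1.02), a quasi-likelihood fit of the 6 libraries with group as the only term, two-sided tests and Benjamini-Hochberg adjustment over all genes tested. Standard errors are the log2 fold change divided by the square root of its F statistic. Printed CPM use TMM factors from all 27 poly(A) libraries. On simulated counts of 7756 genes with 196 changed, 99.0% of 2-fold and 100% of 4-fold changes were recovered, and 3.94% of calls were false. That is a far smaller share of changed genes than the 59.5% called here. These rates therefore describe the simulated setting and not the calls reported above. Depth limits rare genes most: intervals and floors cover counting error only.

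Named genes were the 12 highest and 12 lowest among genes called, at least 2-fold changed, at 10 CPM or more in a group and without overlap (449 met this), up to 3 members of each list, and rin, AGO2 and Dcr-2. The members, the 35 lists and the tests were chosen with earlier results of these data known, and other genes named were chosen after their values were seen. List symbols missing from the files were looked up as RefSeq synonyms. No symbol matched the pattern for mitochondrially encoded genes. Positions and exonic lengths came from an Ensembl annotation with dm6 coordinates, which matched 16293 of 17137 symbols (95.1%), not Sep4.

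Same-numbered WT and Mock controls did not all deviate together (correlations 0.30, 0.09 and 0.15 across genes), so replicate numbers were not taken as pairs. Alternatives were RLE or no scaling, other filters, DESeq2 1.42.0, all 27 libraries in the fit, a replicate block and leaving out each library.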

Additional observations from a re-analysis of the deposited data

Results flagged for a closer look

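For several of the genes with the largest changes, the difference between Mock and WT cells was not the same in the treated cells, by edgeR's test of the difference between treatments with Benjamini-Hochberg adjustment. Values are the Mock minus WT log2 difference under arsenite or in recovery minus that at rest. The genes were chosen for a large difference at rest, which this test subtracts, so a smaller difference after treatment is favoured by the choice. For Col4a1 the value was 1.03 under arsenite, for SPARC 0.34 under arsenite and 0.56 in recovery, and for fat-spondin 0.32 under arsenite, each a smaller difference. For CG4829 it was larger, by -0.45 under arsenite. For the antisense transcripts the difference was smaller: asRNA:CR45798 by 3.28 under arsenite and 3.66 in recovery, and asRNA:CR45926 by 1.63 and 1.35. The value for asRNA:CR45798 rests on 2 Mock control reads.

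Among the raised genes, the difference of CG31808 was smaller by -1.60 under arsenite and -1.91 in recovery, that of CG12826 by -1.49 in recovery and that of lncRNA:CR44953 by -0.91 in recovery. For Cyp6a8 it turned sign, with -4.25 under arsenite and -3.83 in recovery, at levels of 0.791 to 2.08 CPM in the treated cells.

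Outside the gene counts, reads that aligned to several places made up 4.45% of Mock control replicate 2 and 7.51% of Mock control replicate 3, above the highest WT control share of 4.01%. Their part in the results was not tested.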

How the results depend on the processing

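The count of genes called in the unstressed comparison, 4678, was 3903 to 5227 under the other settings run (3977 with DESeq2, 5002 with the replicate block). The 2-fold counts moved with the filter on low counts. With only genes of at least 10 CPM in a group they were 468 (342 higher, 126 lower) at rest, 537 (377 and 160) under arsenite, 615 (371 and 244) in recovery and 471 (343 and 128) for Rin RNAi against WT control. With no filter they were 1442 (358 lower) at rest and 1500 (372 lower) for Rin RNAi, with 920 lower in recovery. With the replicate block the 2-fold count was 959 (734 and 225) against 958 without it. WT control replicate 3 deviated more with Mock control replicate 2 (0.17) than with its own number (0.15).

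Leaving out each library in turn gave 4076 to 5196 genes called (2106 to 2597 higher, 1968 to 2599 lower). The 2-fold counts were 986 to 1016 at rest (751 to 783, 227 to 243), 1141 to 1228 under arsenite (849 to 930, 286 to 314), 1416 to 1495 in recovery (785 to 860, 608 to 646) and 986 to 1089 for Rin RNAi (741 to 841, 243 to 254). The tests of the difference between treatments gave 1966 to 2540 genes for arsenite and 3168 to 4249 for recovery. The Rin RNAi, treatment-difference and list-count alternatives were added after the data were examined.

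Of 1365 values of the 105 named genes under alternatives, 1351 kept their direction and side of the threshold and none reversed. The exceptions were AGO2, Dcr-2, rin and shg. Total library size moved the median of all genes to 0.05 and the share of higher calls from 51.5% to 57.3%. Leaving out each library gave 13 to 15 hemocyte markers 2-fold lower and 20 to 23 detoxification genes 2-fold higher. Depth limits the rare transcripts: those under 3 CPM gave most 2-fold calls per gene.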

Other observations

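The genes below lie outside the lists and were picked one by one after their values were seen, so they stand for no pathway or group. Values are edgeR log2 fold changes of Mock control over WT control, with an adjusted p under 0.05 unless stated. Of the gap junction genes, Inx3, ogre and Inx7 were higher, Inx3 from 6.86 ± 0.803 to 74.1 ± 1.57 CPM (SD, n = 3), with changes of 3.43, 3.40 and 1.96. The bZIP factor Xrp1, known for its role in cell competition and DNA damage, was higher at 1722 ± 38.4 against 705.5 ± 16.7 CPM (SD, n = 3), and its partner Irbp18 changed by 1.25. Glycogen phosphorylase (GlyP) changed by 1.72 and glycogenin (Gyg) by 2.23. The regulatory kinase subunit Pka-R2 changed by 2.17, the phosphodiesterase dnc by 1.30, the adenosine receptor AdoR by 3.55 and the adenylyl cyclase rut by 1.36, while the adenylyl cyclases Ac3 and Ac76E did not pass the test, at 0.10 and 0.02.

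Some abundant transcripts were lower. The cathepsin gene Cp1 changed from 5377 ± 41.0 to 1436 ± 15.2 CPM (SD, n = 3), by -1.90, the ceramidase gene CDase by -1.70 and the saposin gene Sap-r by -1.11. The actin gene Act42A changed from 4822 ± 57.5 to 1972 ± 33.6 CPM (SD, n = 3), by -1.28, while Act5C changed by -0.33. Gelsolin (Gel) changed by -2.04, ena by -1.82, the guanine exchange factor mbc by -1.65 and tropomodulin (tmod) by -1.12. The neprilysin-like genes Nepl19 and Nepl20 changed by -2.95 and -1.94.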
